A study of Homo sapiens with 96 samples.

Results

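The comparison described here follows MDA-MB-231 cells, a human triple-negative breast cancer line, over the first 12 h of a time course in the absence of inhibitor. It sets the arrays labelled 4, 8 and 12 h (27 arrays, called 4-12 h below) against those labelled 0.5 and 1 h (18 arrays, called 0.5-1 h), in 3 arms, and so takes in 45 of the 96 arrays of the study. The rule for the arrays uses their labels and no measured value. Per the labels, cells were grown to 80% confluence and moved to low serum 24 h before treatment, and RNA was read on Affymetrix arrays. The arms were EGF (10 ng/ml added at 0 h), DMSO-EGF (a 30 min pre-treatment with the vehicle DMSO, then 10 ng/ml EGF) and an untreated control. The U0126 arm, set beside them below, had the same pre-treatment time with 10 uM U0126, an inhibitor of the kinase MEK, and then 10 ng/ml EGF. Each arm was followed in 3 series, 2D03 and 2D04 in 2D culture and 3D04 in 3D culture, with 1 array per arm and time. Within a series the 4-12 h window therefore held 9 arrays and the 0.5-1 h window 6. All groups come from 1 cell line, 3D culture is a single series, and the labels do not say whether the series are separate cultures, so p-values measure the spread between these arrays. The values are differences from an unknown reference for each probe set, presumed to be on the log2 scale, so the labelled cell type could not be checked by the level of its markers and no level is compared between genes.

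Cultured cells that are handled, given new medium or stimulated switch on immediate early genes such as FOS and EGR1, whose RNAs are made and destroyed quickly. RNA-decay factors and feedback inhibitors of the ERK pathway follow and dampen the signal, while over the following hours stress, nutrient and cell cycle genes can move as the medium ages. EGR1 is a zinc finger factor of the immediate early class, ZFP36L1 binds AU-rich RNAs and marks them for decay, and BHLHE40 (also called DEC1) is a repressor of the circadian clock that binds E-boxes.

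Their promoters are shown because the windows hold the motifs through which such genes are known to be read. The RNAs of all 3 genes were called different between 4-12 h and 0.5-1 h in the main fit, with limits given below. The genes were chosen with these calls known, so calls and motifs are no independent findings. The stretches are the 250 bases before a transcript's start, from RefSeq on GRCh38.p14, 5′ to 3′, at chr5:138465229-138465478 (+ strand) for EGR1, chr14:68793417-68793666 (- strand) for the one of 2 ZFP36L1 windows that holds a match and chr3:4979187-4979436 (+ strand) for BHLHE40. Capitals mark exact matches, searched on both strands, to the serum response CArG box (EGR1), the cyclic AMP response element TGACGTCA (ZFP36L1) and the E-box CACGTG (BHLHE40).
EGR1: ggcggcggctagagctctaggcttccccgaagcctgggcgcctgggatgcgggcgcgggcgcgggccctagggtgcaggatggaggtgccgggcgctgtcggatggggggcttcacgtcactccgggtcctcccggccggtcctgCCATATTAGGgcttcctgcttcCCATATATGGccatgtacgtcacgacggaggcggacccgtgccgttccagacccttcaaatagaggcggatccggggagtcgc
ZFP36L1: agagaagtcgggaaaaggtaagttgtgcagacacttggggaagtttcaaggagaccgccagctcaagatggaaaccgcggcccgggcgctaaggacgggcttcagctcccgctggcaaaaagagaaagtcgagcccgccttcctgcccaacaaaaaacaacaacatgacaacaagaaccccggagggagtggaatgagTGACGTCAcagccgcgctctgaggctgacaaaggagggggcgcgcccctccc
BHLHE40: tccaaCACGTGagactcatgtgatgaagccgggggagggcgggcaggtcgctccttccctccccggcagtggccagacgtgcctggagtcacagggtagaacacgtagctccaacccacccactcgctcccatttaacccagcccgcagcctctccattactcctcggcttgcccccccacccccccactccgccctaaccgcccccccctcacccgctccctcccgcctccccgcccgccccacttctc

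The EGR1 window holds a pair of CArG boxes, whose first bases lie 105 and 83 bases before the start. The match in ZFP36L1 begins 52 bases and that in BHLHE40 245 bases before it. Among 35116 RefSeq windows of this length, 1.16% held a CArG box, 1.65% TGACGTCA, 6.34% the E-box and 4.2% the AP-1 site TGAGTCA. At least 1 of these 4 motifs was held by 12.9% of the windows. The windows of FOS, JUN and IER2 held none of these 4 motifs, which says nothing of the factors that bind there. IER3, MYC and NR4A2 had no window to search. EGR1 and ZFP36L1 were picked by a rule on adjusted p and motif, and BHLHE40 was added after its values were seen.

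Between 4-12 h and 0.5-1 h, 1359 of 11884 genes changed, which is 11.4% of the genes tested (limma, Benjamini-Hochberg adjusted p below 0.05, with a block for each series and arm). Of these, 775 were higher (6.52%) and 584 lower (4.91%) at 4-12 h. The changes were small: 14 called genes moved by more than 1.5-fold and 2, DDIT4 and CYP1B1, by more than 2-fold, and the median difference over all genes was 0.006 on the log2 scale. Arrays of the same series and time were correlated after the fit (consensus correlation 0.22), and the labels do not say what they share. When the arms were averaged within each series and time, leaving 15 values per gene, 200 genes were called, 137 higher and 63 lower, and with series and time together as a random block, at that estimated correlation, 716 were called. Leaving out 1 series, arm or time also moved the count, as listed at the end. With the mean of each series and arm taken out first, the first principal component of the 45 arrays held 13.7% of the remaining variance. Its medians were -6.2 (0.5 h), -4.9 (1 h), 1.4 (4 h), 4.8 (8 h) and 4.5 (12 h). This share leaves out the variance between series, cultures and arms, so it does not rank time against them. Actin probe sets, 5′ minus 3′, as a measure of RNA integrity, lay between -0.04 and 0.19 at 4-12 h and between -0.11 and 0.13 at 0.5-1 h, and in 2D04 between -0.04 and 0.08 at 4-12 h, against -0.11 and -0.01 at 0.5-1 h. GAPDH probe sets, 5′ minus 3′, lay between -0.06 and 0.16 (mean 0.04) at 4-12 h. At 0.5-1 h they lay between -0.02 and 0.14 (mean 0.06). The part of RNA integrity in the results was not tested.

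The genes that rose most were a regulator of growth signalling, a clock repressor and an enzyme of xenobiotic metabolism. DDIT4 (also called REDD1) restrains the growth kinase complex mTORC1 and is induced by stress and low oxygen. In 2D03, DDIT4 ranged over 1.52 to 2.28 (median 1.92) at 4-12 h, against 1.14 to 1.54 (median 1.39) at 0.5-1 h. In 2D04, DDIT4 ranged over 0.90 to 1.53 (median 1.26) at 4-12 h, against -0.42 to 0.10 (median -0.07) at 0.5-1 h. In 3D04, DDIT4 ranged over -1.45 to -0.31 (median -0.59) at 4-12 h, against -2.89 to -2.24 (median -2.74) at 0.5-1 h. The windows did not overlap in 2D04 and 3D04 and overlapped at their ends in 2D03, where the difference was smallest. The fitted difference was 1.28 ± 0.10 (SE, adjusted p = 6.69e-12), or 2.42-fold higher, and it was as large at 4 h as later: 1.31 at 4 h, 1.26 at 8 h and 1.25 at 12 h, each against 0.5-1 h. BHLHE40 rose by 0.99 ± 0.11 (SE, adjusted p = 1.26e-08), with 1.15 in 2D03, 0.80 in 2D04 and 1.01 in 3D04, and its second probe set gave 0.97. In 2D03 BHLHE40 ranged over -0.48 to 1.60 (median -0.15) at 4-12 h, against -1.28 to -0.71 (median -1.12) at 0.5-1 h. In 3D04 it ranged over -0.46 to 0.66 (median 0.04) at 4-12 h, against -1.10 to -0.87 (median -0.93) at 0.5-1 h, and the windows stood apart in both series. In 2D04 it ranged over -1.20 to -0.06 (median -0.77) at 4-12 h, against -1.92 to -1.11 (median -1.43) at 0.5-1 h, and the windows overlapped. Both genes stayed called when the arms were averaged (limma, adjusted p = 0.000737 for DDIT4 and 0.000747 for BHLHE40).

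CYP1B1, a cytochrome P450 induced by the aryl hydrocarbon receptor, rose by 1.05 ± 0.23 (SE, adjusted p = 0.00187), but its size depended on the series, with 2.09 in 2D03, 0.81 in 2D04 and 0.27 in 3D04. In 2D03 CYP1B1 ranged over -1.07 to 1.07 (median 0.50) at 4-12 h, against -2.04 to -1.77 (median -1.95) at 0.5-1 h, without overlap. In 3D04 CYP1B1 ranged over -3.46 to -1.55 (median -2.46) at 4-12 h, against -3.25 to -2.31 (median -2.73) at 0.5-1 h, and the windows overlapped. The increase was a peak, of 1.88 at 4 h, 1.25 at 8 h and 0.03 at 12 h, and the difference of 24-48 h from 4-12 h was -2.05 (adjusted p = 4.8e-12). With the arms averaged the call was lost (adjusted p = 0.164). CYP1A1, an enzyme of the same family, rose by 0.39 (adjusted p = 0.0116) and TIPARP, which represses the receptor, by 0.30 (adjusted p = 0.00322), so 3 of 7 measured receptor targets rose (against 6.52% of all genes), none fell and their median was 0.06. All 3 were higher at 4 h than at 8 and 12 h, where CYP1B1 differed by 1.24 (adjusted p = 3.72e-05), but 0 of the 7 were called with the arms averaged.

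Among the other genes that rose most, several act in splicing, signalling and chromatin. CLK1, a kinase of splicing factors, rose by 0.61 ± 0.06 (SE, adjusted p = 4.97e-09), with 0.66 in 2D03, 0.63 in 2D04 and 0.55 in 3D04. CLK1 ranged in 2D04 over 0.46 to 1.12 (median 0.79) at 4-12 h, against 0.03 to 0.20 (median 0.10) at 0.5-1 h, without overlap. TSC22D3 (GILZ), a leucine zipper protein best known as a glucocorticoid-induced gene, rose by 0.56 ± 0.07 (SE, adjusted p = 8.26e-07), but SGK1 (-0.26) and KLF9 (-0.15) of the same list of 8 glucocorticoid-responsive genes fell and its median was 0.00. The call of KLF9 was lost with the random block (adjusted p = 0.151 for KLF9), and those of SGK1 and KLF9 with the arms averaged. HRH1, the histamine H1 receptor, rose by 0.54 ± 0.08 (SE, adjusted p = 3.41e-06), and EFNA1, the ligand ephrin-A1, by 0.52 ± 0.08 (SE, adjusted p = 8.02e-06). HMGA2, an architectural chromatin protein of embryonic and tumour cells, rose by 0.51 ± 0.08 (SE, adjusted p = 1.14e-05) and ranged in 3D04 over 3.25 to 3.51 (median 3.33) at 4-12 h, against 2.46 to 3.00 (median 2.87) at 0.5-1 h, without overlap. VIPR1, a receptor of vasoactive intestinal peptide, rose by 0.51 ± 0.07 (SE, adjusted p = 4.38e-06), with 0.71 in 2D03, 0.72 in 2D04 and 0.10 in 3D04. CSRNP2, a cysteine- and serine-rich nuclear protein, rose by 0.52 (adjusted p = 2.77e-08), ZNF264, a zinc finger protein, by 0.52 (adjusted p = 8.78e-08), and CHAC1, which degrades glutathione, by 0.52 (adjusted p = 2.61e-06). CHAC1 differed by 0.27 in 2D03, 1.02 in 2D04 and 0.27 in 3D04. These 9 genes kept their calls with the arms averaged.

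**Figure D1:**
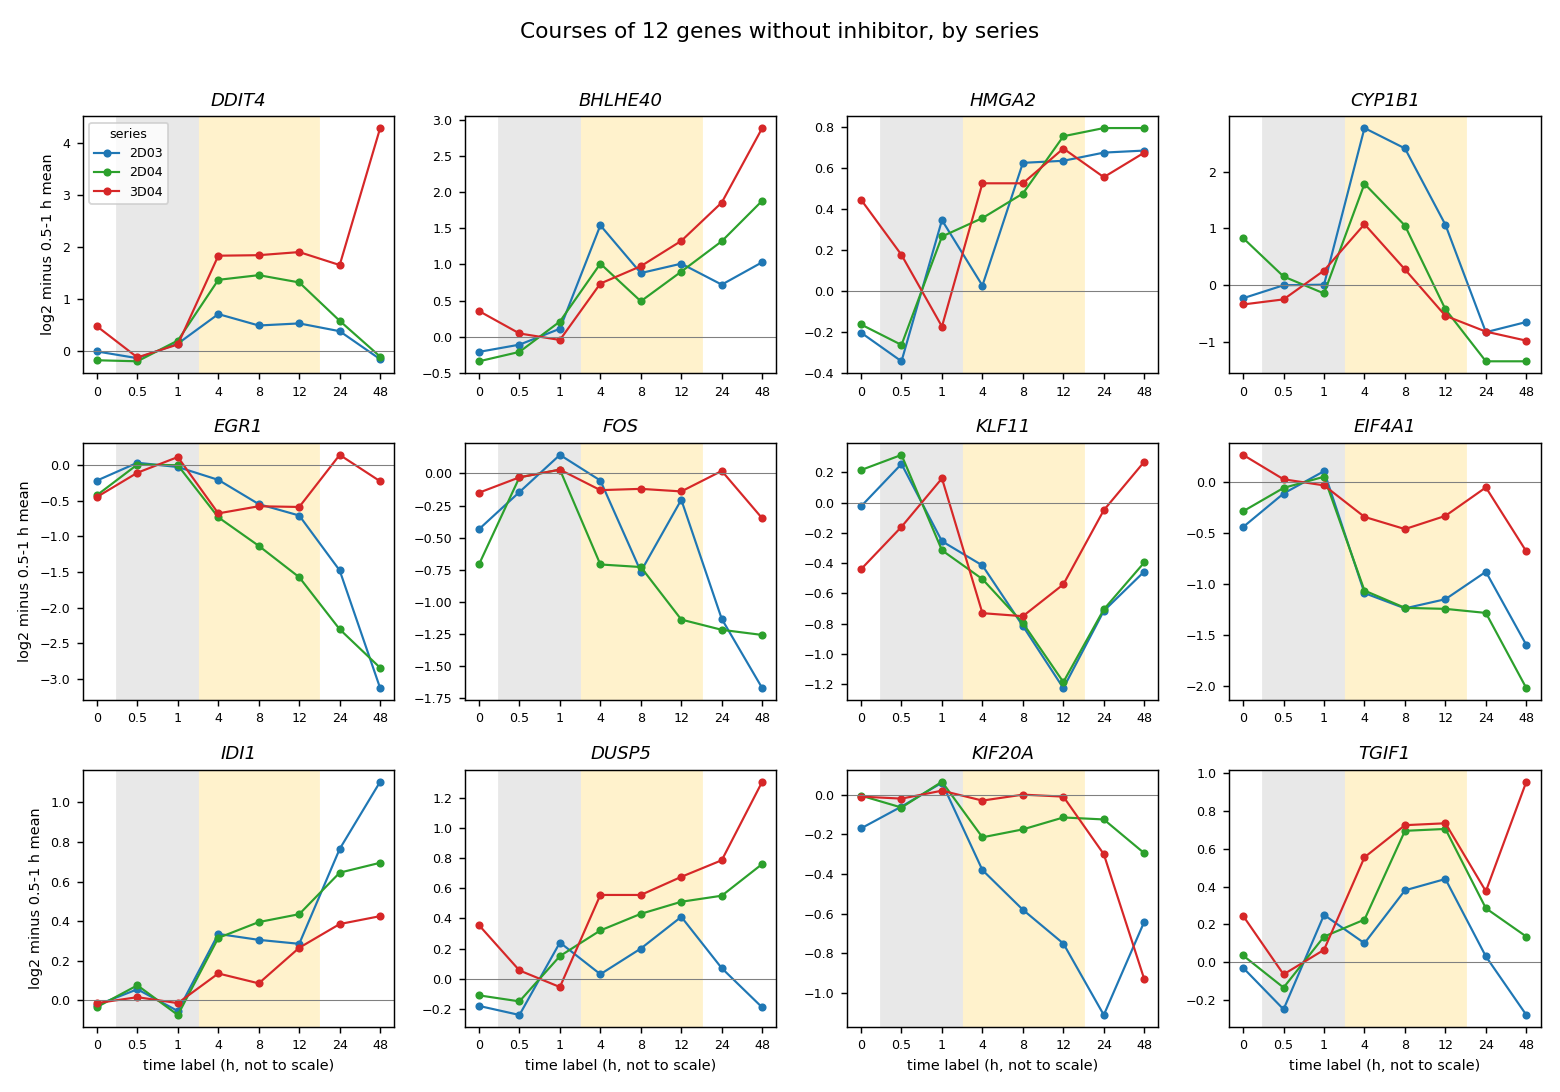
Courses of 12 genes in arrays without inhibitor. The x axis gives the time label in hours (not to scale) and the y axis the mean log2 value of the arms of a series minus that series' mean at 0.5-1 h, with untreated arrays at 0 h; grey marks 0.5-1 h and yellow 4-12 h. DDIT4 and BHLHE40 lie above 0 at 4, 8 and 12 h in all 3 series, EGR1, KLF11 and EIF4A1 lie below it, and CYP1B1 peaks at 4 h.

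Of the immediate early transcription factors, the class that defines the first response to a stimulus, 3 of 20 measured members rose and 3 fell (against 6.52% and 4.91% of all genes), with a median of 0.03. EGR1 fell by 0.75 ± 0.08 (SE, adjusted p = 2.77e-08) on the log2 scale, with -0.49 in 2D03, -1.15 in 2D04 and -0.62 in 3D04, and its second probe set gave -0.90. In 2D04 EGR1 ranged over 1.23 to 2.86 (median 2.03) at 4-12 h, against 2.95 to 3.36 (median 3.23) at 0.5-1 h. In 3D04 EGR1 ranged over 0.86 to 1.22 (median 1.11) at 4-12 h, against 1.57 to 1.93 (median 1.61) at 0.5-1 h, and neither series had overlap. In 2D03 it ranged over 2.13 to 3.42 (median 2.80) at 4-12 h, against 3.20 to 3.47 (median 3.31) at 0.5-1 h, with overlap. The fall deepened with time, to -0.54 at 4 h, -0.75 at 8 h and -0.96 at 12 h, and the difference of 24-48 h from 4-12 h was -0.89 (adjusted p = 0.000113). FOS, the AP-1 subunit, fell by 0.44 ± 0.09 (SE, adjusted p = 0.000999), with -0.34 in 2D03, -0.86 in 2D04 and -0.13 in 3D04, and in 2D04 ranged over -0.79 to 0.00 (median -0.30) at 4-12 h, against 0.42 to 0.85 (median 0.48) at 0.5-1 h, without overlap. IER2, another immediate early gene, fell by 0.14 (adjusted p = 0.0425). JUN, the partner of FOS, rose by 0.28 (adjusted p = 0.0212), the nuclear receptor NR4A2 by 0.23 (adjusted p = 0.00986) and MYC, a factor that drives growth, by 0.20 (adjusted p = 0.00707). MYC differed by 0.34 in 2D03, 0.42 in 2D04 and -0.14 in 3D04, with opposite signs in the cultures. The calls of JUN and IER2 were lost with the random block (adjusted p = 0.0766 for JUN and 0.105 for IER2), and with the arms averaged EGR1 was the one member called in this list. Among 16 RNA-decay factors and signalling brakes, the RNA-decay factor ZFP36L1 rose by 0.26 (adjusted p = 0.00295) and the stress gene IER3 by 0.18 (adjusted p = 0.00152), none fell, and the median was -0.05. Both calls were lost with the arms averaged (adjusted p = 0.133 for ZFP36L1 and 0.12 for IER3). Of the 3 other ZFP36L1 probe sets, 1 was called higher, at 0.20, and the rest gave -0.01 and 0.00. DUSP1, a phosphatase of MAP kinases, was -0.15 (adjusted p = 0.164), which did not pass.

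KLF11, a zinc finger repressor induced by TGF-beta, was the lowest gene on 1 probe set with no second set to check it. In 2D04 KLF11 ranged over -0.29 to 0.60 (median 0.14) at 4-12 h, against 0.57 to 1.42 (median 1.05) at 0.5-1 h, overlapping at one end. In 2D03 it ranged over -0.61 to 0.55 (median -0.17) at 4-12 h, against 0.44 to 1.05 (median 0.78) at 0.5-1 h, also overlapping. In 3D04 it ranged over -0.38 to -0.01 (median -0.26) at 4-12 h, against 0.15 to 0.71 (median 0.42) at 0.5-1 h, without overlap. KLF11 fell by 0.77 ± 0.09 (SE, adjusted p = 7.44e-08) on the log2 scale, with -0.82 in 2D03, -0.83 in 2D04 and -0.67 in 3D04. Against 0.5-1 h it lay at -0.55 at 4 h, -0.79 at 8 h and -0.98 at 12 h, and it then turned: the difference of 24-48 h from 4-12 h was 0.43 (adjusted p = 9.76e-05).

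Most of the other genes with the largest falls rested on 1 probe set of several. EIF4A1, the RNA helicase of translation initiation, ranged in 2D03 over 0.26 to 0.79 (median 0.52) at 4-12 h, against 1.44 to 1.82 (median 1.70) at 0.5-1 h. The range of EIF4A1 in 2D04 was 0.21 to 0.64 (median 0.38) at 4-12 h, against 1.50 to 1.71 (median 1.54) at 0.5-1 h. In 3D04 the range was -0.24 to 0.17 (median 0.05) at 4-12 h, against 0.31 to 0.49 (median 0.41) at 0.5-1 h. Its windows did not overlap in any series, which held for 3 genes in all, EIF4A1, HNRNPA1 and RPL10, each lower at 4-12 h (0.0252% of genes), and for no gene that was higher. EIF4A1 fell by 0.90 ± 0.07 (SE, adjusted p = 5.25e-12) on the log2 scale, but its other 2 probe sets gave -0.01 to 0.00. EIF1, which guides start codon choice, fell by 0.92 ± 0.09 (SE, adjusted p = 2.88e-09), against 0.01 to 0.03 in its other 4 probe sets. HNRNPA1, a splicing regulator, fell by 0.75 ± 0.07 (SE, adjusted p = 4.97e-10), against -0.41 to -0.01 in the other 4, 2 of which were called lower too. HNRNPD (AUF1), which binds AU-rich RNAs, fell by 0.72 (adjusted p = 1.12e-09), against -0.07 to 0.01 in the other 5. The ribosomal protein gene RPL5 fell by 0.68 (adjusted p = 4.97e-09), against -0.01 to 0.02, and RPL10 by 0.65 (adjusted p = 4.88e-10), against 0.03 to 0.04, in 2 other sets each. PPIA, the abundant prolyl isomerase cyclophilin A, fell by 0.67 (adjusted p = 2.17e-09), against 0.03 to 0.06 in the other 4, of which 1 was called higher. SF1, which recognises the branch point in splicing, fell by 0.55 (adjusted p = 2.77e-08), against -0.05 in its other set. ARAP2, a GTPase-activating protein, fell by 0.64 (adjusted p = 4.88e-10) while its other probe set was called higher at 0.36. ABL2, a tyrosine kinase read by 1 probe set, fell by 0.52 (adjusted p = 0.00349), a call lost with the arms averaged. For these genes the values describe the probe set read and not the gene's other transcripts. Over all genes called higher with several probe sets, 141 of 317 (44.5%) had another set called the same way and 2 had one called the opposite way. Of those called lower, the numbers were 94 of 273 (34.4%) and 8. Some genes named in this report without their other probe sets had none of these called, among them NOP16, GDF15, SPARC, KLF9 and MCM4. The other sets gave 0.00 and -0.07 for NOP16, 0.01 for GDF15 and 0.10 for SPARC.

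**Figure D2:**
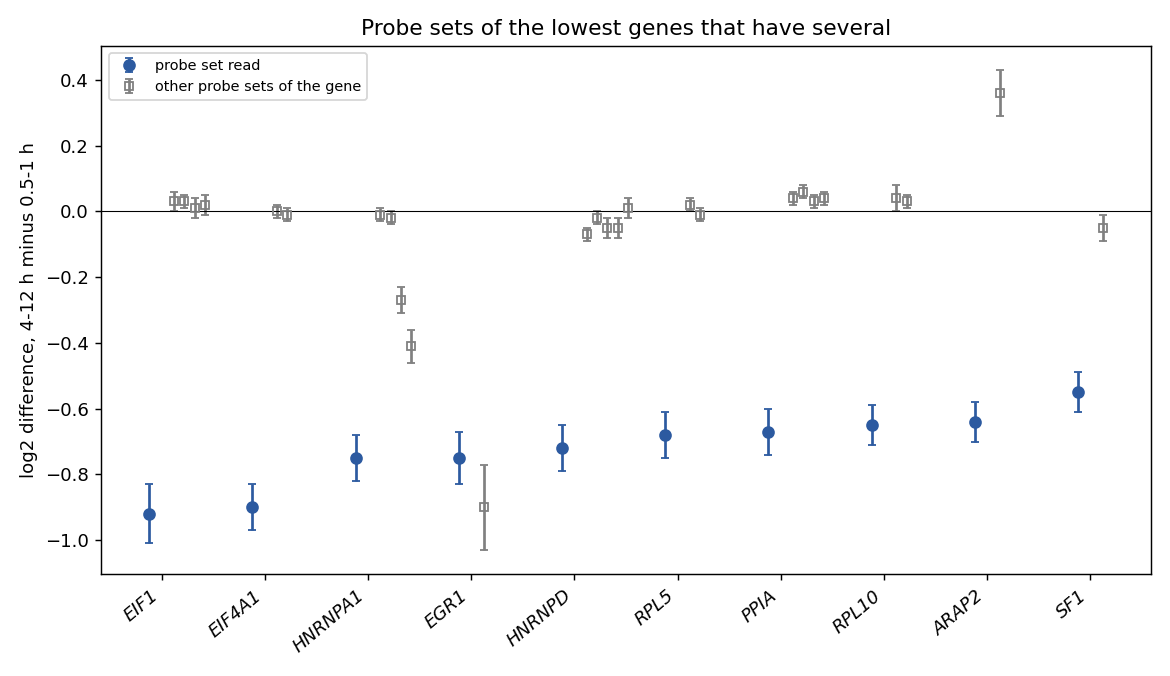
Probe sets of the lowest genes that have several. The y axis is the log2 difference of 4-12 h minus 0.5-1 h with its SE, for the probe set read (filled circle, the one with the largest SD over all 96 arrays) and the gene's other probe sets (open squares). Both EGR1 sets lie below -0.7, whereas the other sets of EIF1, EIF4A1, RPL5, RPL10 and PPIA lie within 0.06 of 0.

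The enzymes of cholesterol and fatty acid synthesis, whose genes are driven by the SREBP factors when sterol is short, rose in most cases. Of 16 measured genes, 11 rose and none fell, against 6.52% of all genes called higher, with a median of 0.21 beside 0.006 for all genes. IDI1, which isomerises isopentenyl diphosphate, ranged in 2D04 over -0.34 to -0.06 (median -0.14) at 4-12 h, against -0.62 to -0.43 (median -0.56) at 0.5-1 h. In 2D03 IDI1 ranged over -0.85 to -0.46 (median -0.75) at 4-12 h, against -1.18 to -0.89 (median -1.01) at 0.5-1 h. In 3D04 IDI1 ranged over -0.34 to -0.06 (median -0.21) at 4-12 h, against -0.53 to -0.20 (median -0.34) at 0.5-1 h. The windows of IDI1 stood apart in both 2D series and overlapped in 3D04. IDI1 rose by 0.28 ± 0.03 (SE, adjusted p = 2.77e-08), CYP51A1, the lanosterol demethylase, by 0.28 (adjusted p = 8.78e-08), DHCR7, which makes cholesterol in the last step, by 0.28 (adjusted p = 8.26e-07) and FDPS, the farnesyl diphosphate synthase, by 0.19 (adjusted p = 3.88e-05). The second probe sets of IDI1 (0.25) and DHCR7 (0.28) were called higher too, but those of CYP51A1 (0.08) and FDPS (0.04) were not called. HMGCS1, the synthase that feeds the pathway, rose by 0.29 ± 0.06 (SE, adjusted p = 0.00131). SCD, a fatty acid desaturase, rose by 0.27 (adjusted p = 0.000483), the sterol sensor INSIG1 by 0.24 (0.000495) and SREBF2, the gene of SREBP2 itself, by 0.18 (0.000207). The number called was 4 of 16 at 4 h and 13 at 12 h, where 8.37% of all genes were called higher, with medians of 0.13, 0.18 and 0.28 at 4, 8 and 12 h. With the arms averaged 6 were called, and with the random block 11.

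Stress and nutrient genes also rose in part. Of 15 ATF4 amino acid stress genes, a set induced when amino acids are short, 7 rose and 1 fell (median 0.14), against 6.52% and 4.91% of all genes. Besides DDIT4 and CHAC1 these were SLC7A5 (0.23, adjusted p = 0.00114) and SLC3A2 (0.16, 0.0116), which together form an amino acid transporter, DDIT3 (0.21, adjusted p = 0.00423), TRIB3 and CEBPB, whereas ASNS, the asparagine synthetase, fell by 0.11 (adjusted p = 0.0335). The call of ASNS was lost with the random block (adjusted p = 0.0877 for ASNS), and with the arms averaged DDIT4 and CHAC1 were the 2 members called. All 8 genes of the metallothionein list, zinc-binding proteins and the zinc exporter SLC30A1, rose, with a median of 0.14, but 0 were called with the arms averaged and 6 with the random block (adjusted p = 0.113 for MT1H and 0.0746 for SLC30A1). MT1F rose by 0.27 ± 0.06 (SE, adjusted p = 0.00161), with 0.64 in 2D03, 0.19 in 2D04 and -0.01 in 3D04, and MT1E by 0.19 ± 0.04 (SE, adjusted p = 0.000554); metallothionein genes are near-identical copies, so their probe sets may not be independent. Of 15 hypoxia and glycolysis genes 4 rose, ALDOC (0.36, adjusted p = 5.31e-06), PFKFB3 (0.23, adjusted p = 0.00124), VEGFA (0.27, adjusted p = 0.0025) and NDRG1 (0.24, adjusted p = 0.013), none fell, the median was 0.06, and with the arms averaged ALDOC alone was called. In 3D04 the median of the list was 0.18, against 0.00 in 2D. Of 12 heat shock genes 3 rose, HSPA1A (0.41, adjusted p = 0.00244), HSPA1B (0.31, adjusted p = 0.0112) and BAG3 (0.08, adjusted p = 0.0337), against 6.52% of all genes. BAG3 was lost with the random block (adjusted p = 0.133 for BAG3) and all 3 with the arms averaged. HSPA1A differed by 0.77 in 2D03, 0.01 in 2D04 and 0.45 in 3D04, and HSPA6, a strictly inducible chaperone, by 2.70 in 2D03, -0.12 in 2D04 and 0.08 in 3D04, so that its difference of 1.46 at 12 h (adjusted p = 0.0112) rested on 2D03, the one series with a large value. Of 11 ER chaperone genes HERPUD1 (0.13, adjusted p = 0.00354) and EDEM1 (0.13, adjusted p = 0.00666) rose, calls lost with the arms averaged. 0 of 6 NRF2 targets were called (median 0.07).

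Genes read as output and feedback of the ERK pathway changed in 6 of 11 measured members. Of these, 5 rose and 1 fell, against 6.52% and 4.91% of all genes, with a median of 0.12, and 4 stayed called higher with the arms averaged. DUSP5, a nuclear ERK phosphatase, rose by 0.41 ± 0.06 (SE, adjusted p = 3.34e-06) and ranged in 3D04 over 1.84 to 2.09 (median 1.96) at 4-12 h, against 1.05 to 1.57 (median 1.38) at 0.5-1 h, without overlap. The ephrin receptor EPHA2 rose by 0.19 (adjusted p = 1.14e-05), PHLDA1 by 0.38 (adjusted p = 1.61e-05), DUSP4, another phosphatase, by 0.38 (adjusted p = 0.00334) and SPRY4, a Sprouty inhibitor, by 0.28 (adjusted p = 1.53e-06). The second probe set of SPRY4 gave -0.03, and SPRY2 fell by 0.17 (adjusted p = 0.00718). Of 6 ligands of the EGFR receptor family, NRG1 fell by 0.16 (adjusted p = 0.0139) and none rose. The other 5 probe sets of NRG1 gave -0.06 to 0.07, and none was called. The call of NRG1 was kept with the random block (adjusted p = 0.0473) and lost with the arms averaged (adjusted p = 0.249). Among 17 cytokines and NF-kB targets, LIF, a cytokine of the IL-6 family, rose by 0.47 (adjusted p = 2.91e-07), the monocyte chemokine CCL2 by 0.35 (adjusted p = 0.000275) and IL11 by 0.37 (adjusted p = 0.044), while the neutrophil chemokines CXCL2 and CXCL8 fell by 0.43 (adjusted p = 0.000281) and 0.22 (adjusted p = 0.0159). IL11 differed by -0.003 in 2D03, 0.637 in 2D04 and 0.463 in 3D04. CXCL8 and IL11 were lost with the random block (adjusted p = 0.059 for CXCL8 and 0.101 for IL11). With the arms averaged 2 members of the list were higher and 1 lower. Of 13 invasion and protease genes, the urokinase PLAU (0.33, adjusted p = 0.00123), PLAT (0.25, adjusted p = 0.00131), MMP1 (0.28, adjusted p = 0.0349) and the protease inhibitor TIMP1 (0.15, adjusted p = 7.55e-05) rose. MMP1 was lost with the random block (adjusted p = 0.077 for MMP1) and all 4 with the arms averaged. PLAU differed by 0.236 in 2D03, 0.714 in 2D04 and 0.042 in 3D04.

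Developmental and clock genes changed in a few members each. The counts below stand beside 6.52% of all genes called higher and 4.91% called lower. TGIF1, a repressor of TGF-beta signalling, rose by 0.51 ± 0.06 (SE, adjusted p = 1.49e-07) and ranged in 3D04 over -0.29 to 0.02 (median -0.05) at 4-12 h, against -0.88 to -0.60 (median -0.78) at 0.5-1 h, without overlap. ID1, an inhibitor of helix-loop-helix factors, rose by 0.34 (adjusted p = 0.00389) and the decoy receptor BAMBI by 0.33 (adjusted p = 0.00444). BAMBI differed by 0.804 in 2D03, 0.164 in 2D04 and 0.025 in 3D04. In all, 3 of 9 TGF-beta and BMP targets rose (median 0.20), and TGIF1 alone with the arms averaged. The Notch target HES1 rose by 0.37 (adjusted p = 1.03e-06) and the ligand JAG1 by 0.21 (adjusted p = 0.00339), 2 of 6 in that list, and HES1 alone with the arms averaged. Of 17 clock genes, BMAL1 (0.22, adjusted p = 0.0206) and CRY2 (0.15, adjusted p = 0.0111) rose besides BHLHE40, and the nuclear receptors NR1D1 (-0.24, adjusted p = 0.00304) and NR1D2 (-0.22, 0.0243) fell (median 0.03). CRY2, BMAL1 and NR1D2 were lost with the random block (adjusted p = 0.061 for CRY2, 0.0591 for BMAL1 and 0.061 for NR1D2), which left BHLHE40 and NR1D1, as did averaging the arms. Of 13 targets of SRF, MRTF and YAP, VCL (0.26, adjusted p = 0.00308), ACTG1 (0.16, adjusted p = 7.29e-06) and ACTB (0.06, adjusted p = 0.0321), which encode cytoskeletal proteins, rose, and CCN1 (-0.27, adjusted p = 0.000119) and AMOTL2 (-0.13, 0.0332) fell. ACTB and AMOTL2 were lost with the random block (adjusted p = 0.123 for ACTB and 0.082 for AMOTL2). The mesenchymal list had SNAI2 (0.45, adjusted p = 2.67e-05), SPARC (0.32, adjusted p = 0.00725) and FN1 (0.12, adjusted p = 0.0431) higher among 7, whereas 0 of 5 leukocyte, 0 of 8 fibroblast and 0 of 9 luminal epithelial markers were called, with medians of 0.02, 0.00 and 0.02. In the mesenchymal list SPARC and FN1 were lost with the random block (adjusted p = 0.0607 for SPARC and 0.142 for FN1). Of 14 interferon-stimulated genes 1 was called, IFI44, which fell by 0.28 (adjusted p = 0.0285), a call lost with the random block (adjusted p = 0.084 for IFI44) and with the arms averaged, and its other probe set gave 0.00.

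Genes of cell division, DNA replication and ribosome biogenesis were lower at 4-12 h where they changed. Of 26 G2/M and mitosis genes 8 fell and none rose, against 4.91% of all genes called lower, with a median of -0.08. KIF20A, a mitotic kinesin, ranged in 2D03 over -0.79 to -0.14 (median -0.43) at 4-12 h, against 0.03 to 0.21 (median 0.17) at 0.5-1 h, without overlap. In 3D04 KIF20A ranged over 0.71 to 0.82 (median 0.76) at 4-12 h, against 0.74 to 0.84 (median 0.76) at 0.5-1 h, with overlap. KIF20A fell by 0.25 ± 0.05 (SE, adjusted p = 0.000504), with -0.57 in 2D03, -0.17 in 2D04 and -0.01 in 3D04, and the kinetochore gene CENPF by 0.33 (adjusted p = 0.000659), with -0.67 in 2D03, -0.31 in 2D04 and 0.00 in 3D04. The mitotic cyclins CCNB1 and CCNB2 fell by 0.14 (adjusted p = 0.000676) and 0.16 (adjusted p = 0.000234). Within 2D 16 of the 26 fell (median -0.15; 8.15% of all genes), and within 3D 0 did (median 0.01; 0.202%); the test of 3D minus 2D called 4 of them, against 1.62% of all genes higher in 3D. Among 24 genes of G1/S and replication, 4 were lower: CDT1, the licensing factor, by 0.30 (adjusted p = 0.00131), then UNG, MCM4 and RFC3. At 4 h 3 of the 24 were higher and 0 lower than at 0.5-1 h (1.25% of all genes lower), and at 12 h 0 were higher and 15 lower (7.07%). In the direct test, 12 of the 24 were higher at 4 h than at 8 and 12 h (3.48% of all genes). Ribosome biogenesis genes likewise had 0 of 17 lower at 4 h and 10 at 12 h, and NOP16 and RRS1 led the 3 that fell over the window, at -0.16 (adjusted p = 0.00131) and -0.15 (adjusted p = 0.00637). Of 11 CDK inhibitor and p53-linked genes 4 rose: CDKN1A, the p21 gene (0.34, adjusted p = 0.000395), CDKN1B (0.20, adjusted p = 0.00973), GDF15 (0.22, adjusted p = 0.0276) and ZMAT3 (0.15, adjusted p = 0.0487), against 6.52% of all genes. GDF15 and ZMAT3 were lost with the random block (adjusted p = 0.0795 for GDF15 and 0.137 for ZMAT3), and with the arms averaged CDKN1A alone was called. 0 of 5 G1 cyclin genes were called. With the arms averaged 0 members of the G2/M, G1/S and ribosome biogenesis lists were called, and with the random block 5, 3 and 2, with adjusted p = 0.0511 for PLK1, 0.0511 for KIF23, 0.0767 for CENPE, 0.105 for RFC3 and 0.117 for NOP56. Fewer cells in a phase and less RNA per cell cannot be told apart in these bulk samples.

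**Figure D3:**
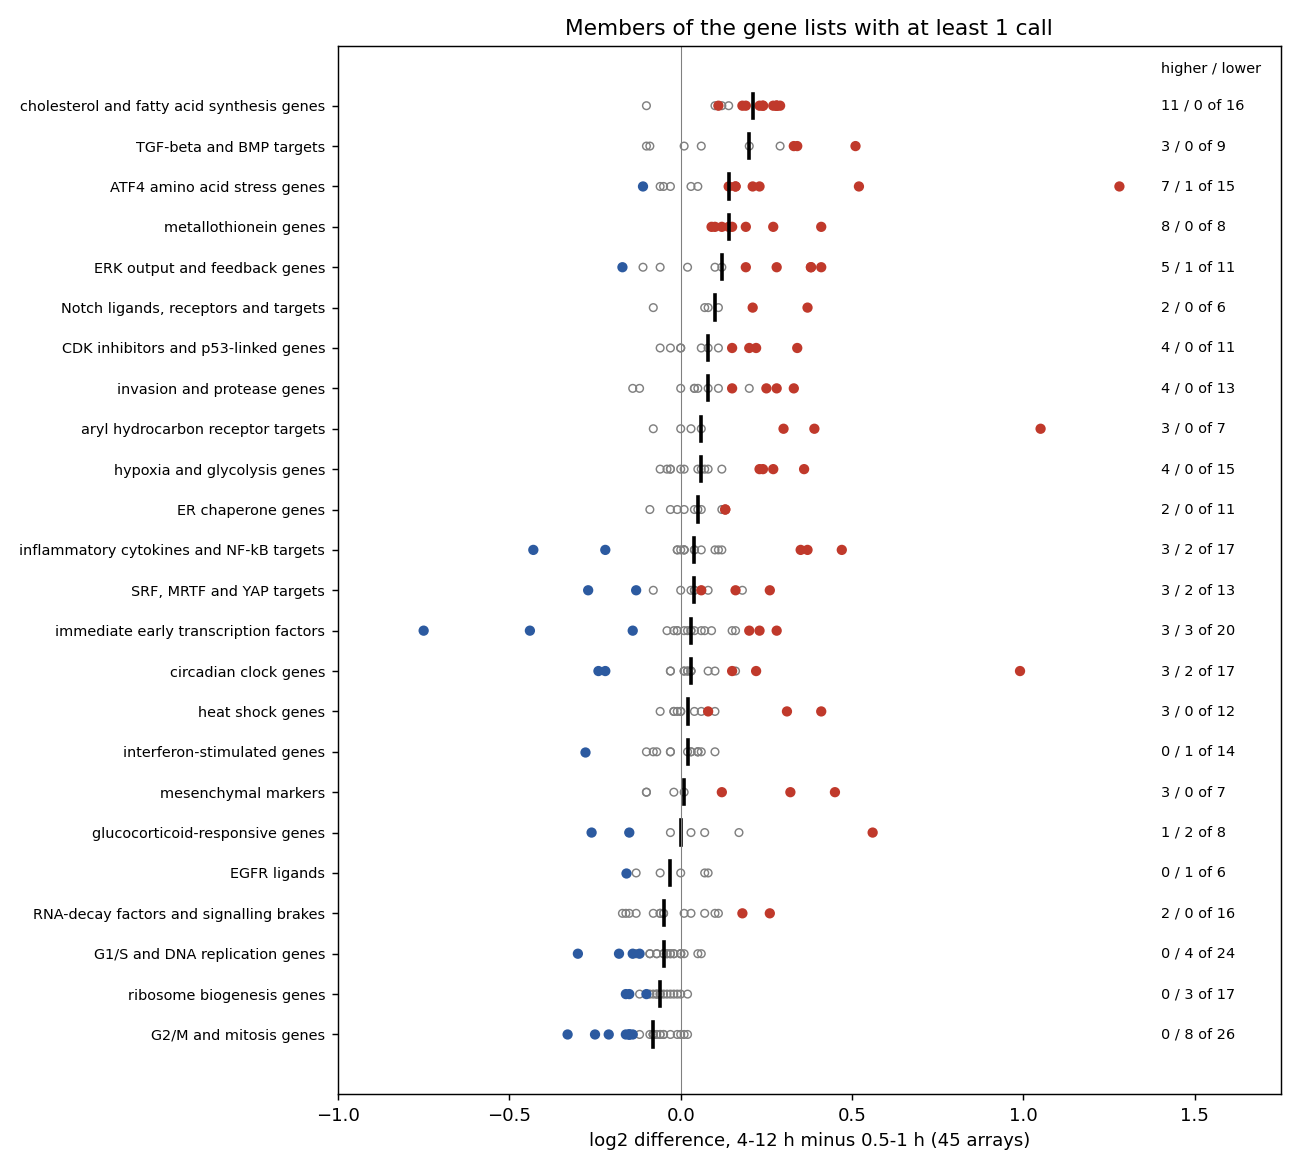
Members of the gene lists with at least 1 call. The x axis is the log2 difference of 4-12 h minus 0.5-1 h over 45 arrays; filled points passed the test (red higher, blue lower), open points did not, and black bars are list medians; the text at the right gives the members called higher and lower of those measured. The cholesterol list has 11 of 16 members called higher and the G2/M list 8 of 26 called lower, while most lists have medians within 0.15 of 0.

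The course within the windows was examined with time as a factor in the same arrays. The 4 h arrays differed from 0.5-1 h in 484 genes (4.07%; 2.82% higher), those of 8 h in 1192 (10%), of which 602 were higher (5.07%) and 590 lower (4.96%), and those of 12 h in 1835 (15.4%). Between 4 h and the mean of 8 and 12 h, 683 genes differed (5.75%), 413 of them higher (3.48%) and 270 lower (2.27%) at 4 h, or 302 with the random block. After CYP1B1, the genes highest at 4 h were the zinc exporter gene SLC30A1 (0.75, adjusted p = 0.000268), PTGS2, the inducible cyclooxygenase (0.67, adjusted p = 0.000201), FBXO11 (0.66, adjusted p = 1.47e-07) and ELK4, a partner of SRF (0.63, adjusted p = 3.45e-07). PTGS2 lay at 0.55 at 4 h, 0.17 at 8 h and -0.39 at 12 h against 0.5-1 h, with the first and last of opposite sign. FBXO11, a subunit of a ubiquitin ligase, lay at 0.21 at 4 h, -0.37 at 8 h and -0.51 at 12 h. Lowest at 4 h were CCNG2 (-0.60, adjusted p = 0.00131), an atypical cyclin of resting cells, IRF2 (-0.59, adjusted p = 0.000235), WNT5A (-0.56, adjusted p = 0.000352), FAM200C (-0.50, adjusted p = 0.00227) and the Hedgehog receptor PTCH1 (-0.47, adjusted p = 0.000462). WNT5A, a Wnt ligand, lay at -0.37 at 4 h, 0.07 at 8 h and 0.29 at 12 h. At 12 h CORO2B, an actin-binding coronin, had reached 0.71 ± 0.10 (SE, adjusted p = 3.5e-06), against 0.16 at 4 h.

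The 0.5-1 h window itself was not uniform: 71 genes differed between 1 h and 0.5 h (0.597%), 61 of them higher (0.513%) and 10 lower (0.0841%) at 1 h. With the random block 12 were called, and the number lay between 22 and 202 when each array was left out in turn, at 22 without the 1 h EGF array of 2D03 and 202 without the 1 h control array of 3D04. FAM200C (0.73, adjusted p = 0.00213), ZNF232 (0.56, adjusted p = 0.0206), EDRF1 (0.50, adjusted p = 0.000869), KMT5B, a histone methyltransferase (0.50, adjusted p = 0.0207) and ZNF623 (0.47, adjusted p = 0.000869) were the highest at 1 h. HMGCS1 was -0.36 (adjusted p = 0.00629) and DST, a cytoskeletal linker, -0.33 (adjusted p = 0.0212). No immediate early factor or brake was called between these times.

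Untreated arrays at 0 h gave a baseline before the first hour. Between 0.5-1 h (6 arrays) and 0 h (6 arrays) limma called 0 of 11884 genes, with 330 at an unadjusted p under 0.05. Between 4-12 h (9 arrays) and 0 h it called 35 (0.295%), 22 higher and 13 lower, a number between 6 (without 1 of the 0 h arrays of 2D03) and 67 (without the 48 h array of 3D04) with 1 array left out, and 7 in the 2D series alone. EIF4A1 was 0.13 ± 0.16 (SE, adjusted p = 1) at 0.5-1 h and -0.80 ± 0.15 (SE, adjusted p = 0.0117) at 4-12 h, each against 0 h. CLK1 was 0.05 (adjusted p = 1) and then 0.66 (adjusted p = 0.035), VIPR1 0.00 (adjusted p = 1) and then 0.64 (adjusted p = 0.0369), and TUBD1, a tubulin of centrioles, -0.02 (adjusted p = 1) and then 0.69 (adjusted p = 0.0117). EGR1 was 0.25 ± 0.32 (SE, adjusted p = 1) at 0.5-1 h and -0.68 ± 0.29 (SE, adjusted p = 0.359) at 4-12 h, and FOS 0.22 ± 0.14 (SE, adjusted p = 1) and -0.22 ± 0.13 (SE, adjusted p = 0.532). At 0 h, untreated series means lay below the 0.5-1 h mean of all arms in all 3 series for EGR1 (-0.36 on average), FOS (-0.43) and DUSP1 (-0.45), which sets untreated cells against arms of which most had received EGF. The working description of this comparison, a transient change after handling and medium addition, was not settled. There were 6 arrays against 6, in a fit over all 27 untreated arrays. That fit held 24 and 48 h as 1 group, so the spread between these times was part of its error. A small early change could therefore go undetected, and what share of the low counts either limit explains was not tested. Later times differed more: against 0 h, 2562 genes (21.6%) differed in untreated cells at 24-48 h, and over 63 arrays without inhibitor 4797 (40.4%) differed between 24-48 h and 4-12 h, 23.1% of genes being lower at 24-48 h. From 4-12 h to 24-48 h the difference was 0.63 (adjusted p = 0.000266) in BHLHE40, 0.39 (adjusted p = 4.71e-11) in IDI1 and 0.19 (adjusted p = 0.029) in HMGA2, with the same sign as before, and 0.43 (adjusted p = 9.76e-05) in KLF11 and -0.26 (adjusted p = 0.00268) in TGIF1, with the opposite sign. DDIT4 was -0.17 ± 0.23 (SE, adjusted p = 0.604) between those times, and its series means at 48 h, against 0.5-1 h, ran from -0.16 to 4.30.

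EGF was tested for its part in the course by comparing the arms that received it with the control. Within the EGF and DMSO-EGF arms (30 arrays) 886 genes differed between the windows (7.46%), 517 higher (4.35%) and 369 lower (3.11%), and within the control (15 arrays) 93 (0.783%). These arms share no arrays: 73 genes were called in both in the same direction, 8.24% of the first list and 78.5% of the second, and none in opposite directions. Across all genes the differences correlated with Pearson's r = 0.63 and Spearman's rho = 0.46, a description over genes in arms of the same series and times. The test of the difference between EGF arms and control called 0 genes by limma, with 434 at an unadjusted p under 0.05. DDIT4 rose by 1.30 ± 0.13 (SE, adjusted p = 5.17e-09) in the EGF arms and by 1.23 ± 0.18 (SE, adjusted p = 9.76e-05) in the control. BHLHE40 rose by 1.10 ± 0.13 (SE, adjusted p = 2.25e-07) in the EGF arms and 0.75 ± 0.18 (SE, adjusted p = 0.0345) in the control. EGR1 was -0.66 ± 0.10 (SE, adjusted p = 2.52e-05) in the EGF arms and -0.93 ± 0.14 (SE, adjusted p = 0.000222) in the control, a difference of 0.27 ± 0.18 (SE, adjusted p = 1). ZKSCAN4, a zinc finger factor, rose by 0.37 ± 0.08 (SE, adjusted p = 0.00201) in the EGF arms and 0.72 ± 0.11 (SE, adjusted p = 0.000222) in the control. The count in the control lay between 26 and 133 with 1 array left out (the 0.5 h and 4 h control arrays of 2D03), and was 35 in the 2D series alone.

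The change between the windows was compared between cultures, with 3D a single series, so that culture and series cannot be told apart. Within 3D (15 arrays) 120 genes were called (1.01%), 96 higher and 24 lower, and within 2D (30 arrays) 1764 (14.8%), 796 higher (6.7%) and 968 lower. These counts come from unequal numbers of arrays, and both were tested with a spread estimated over the 2 cultures together. In fits of 1 series each, with 15 arrays and the spread of that series, 536 genes were called in 3D04, 606 in 2D03 and 389 in 2D04, so 3D04 lay between the 2D series. The 120 and the 536 calls rest on the same 15 arrays. Of the genes called within 3D and within 2D, 60 were called in both in the same direction, 50% of the 3D list and 3.4% of the 2D list, and 2 in opposite directions. Across all genes the differences in 3D and in 2D correlated with Pearson's r = 0.26 and Spearman's rho = 0.11. The test of the difference called 262 genes (2.2%), 192 higher in 3D (1.62%) and 70 lower (0.589%). With the random block it called 18, 15 higher and 3 lower in 3D, and without the replicate block 21. Which genes kept a call there is not given, and the differences between cultures below are those of the main fit. DDIT4 rose by 1.86 ± 0.14 (SE, adjusted p = 1.18e-12) in 3D and 0.98 ± 0.10 (SE, adjusted p = 1.53e-09) in 2D, a difference of 0.88 ± 0.17 (SE, adjusted p = 0.00312). BHLHE40 rose by 1.01 in 3D and 0.97 in 2D, with a difference of 0.04 ± 0.23 (SE, adjusted p = 0.964). VIPR1 was 0.10 (adjusted p = 0.807) in 3D and 0.72 (adjusted p = 3.35e-09) in 2D, MYC -0.14 (adjusted p = 0.364) and 0.38 (adjusted p = 7.13e-08), HES1 0.09 (adjusted p = 0.706) and 0.51 (adjusted p = 6.2e-10), and CDKN1A 0.05 (adjusted p = 0.928) and 0.48 (adjusted p = 5.07e-06). The differences between cultures were -0.52 (adjusted p = 0.000154) for MYC, -0.42 (adjusted p = 0.00596) for HES1 and -0.43 (adjusted p = 0.0488) for CDKN1A. CST1, the cystatin SN gene, rose by 0.65 (adjusted p = 0.00107) in 3D, against 0.02 (adjusted p = 0.919) in 2D. The probe set of EIF4A1 was -0.37 (adjusted p = 0.000789) in 3D and -1.17 (adjusted p = 5.81e-22) in 2D, and that of HNRNPA1 -0.31 (adjusted p = 0.0814) and -0.97 (adjusted p = 6.56e-15), with differences of 0.80 (adjusted p = 3.7e-08) and 0.67 (adjusted p = 0.000672). CENPF and KIF20A were 0.00 and -0.01 in 3D, against -0.49 (adjusted p = 2.32e-06) and -0.37 (adjusted p = 1.96e-06) in 2D, with differences of 0.49 (adjusted p = 0.0228) and 0.36 (adjusted p = 0.024). Without the 0.5 h DMSO-EGF array of 3D04, 45 genes were called in 3D and 96 in the difference.

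**Figure D4:**
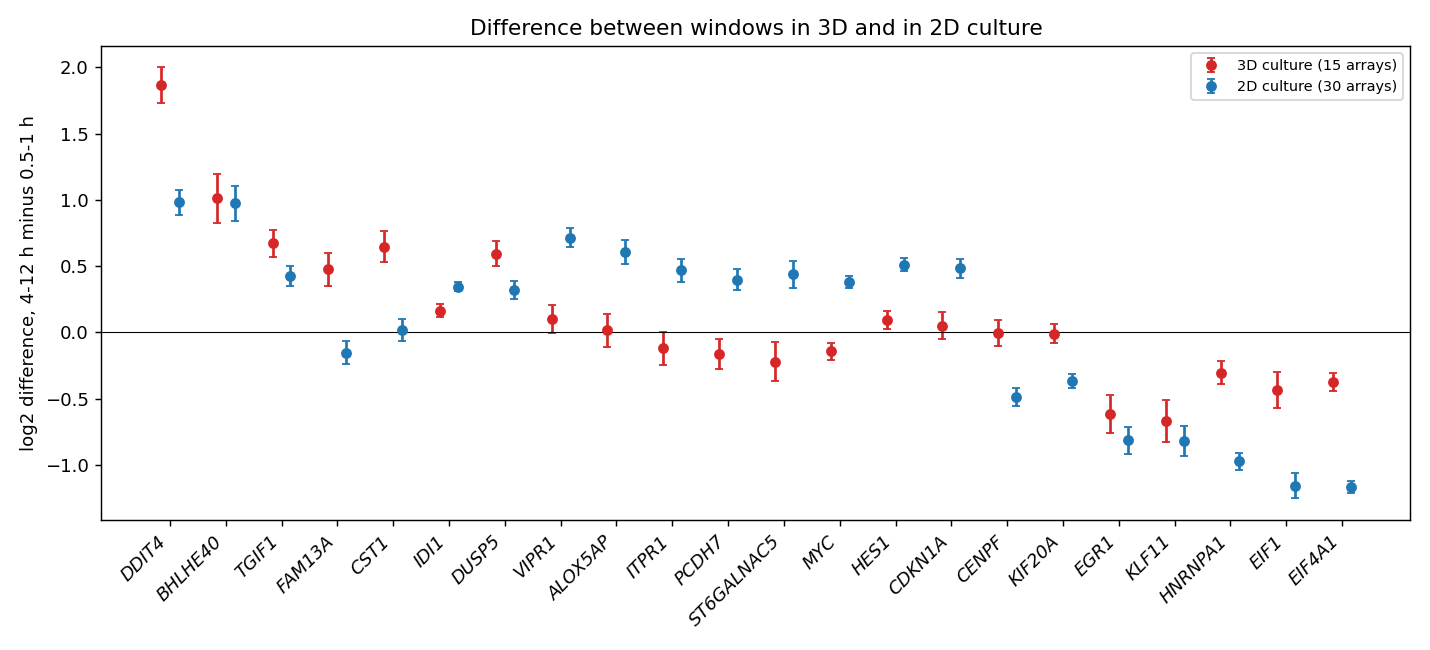
Difference between the windows in 3D and in 2D culture for 22 genes. The y axis is the log2 difference of 4-12 h minus 0.5-1 h with its SE, for 3D culture (15 arrays, red, left) and 2D culture (30 arrays, blue, right). BHLHE40, EGR1 and KLF11 lie close together, whereas DDIT4 is higher in 3D and VIPR1, MYC, HES1 and CDKN1A are higher in 2D.

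The arm with U0126 was set beside its vehicle arm to see which parts of the course went on with MEK inhibited. Within U0126 (15 arrays) 2719 genes differed between the windows (22.9%; 9.26% higher and 13.6% lower), within DMSO-EGF (15 arrays) 67 (0.564%), and 797 (6.71%) in the test of the difference. Of the 775 genes called higher in the 45 arrays without inhibitor, 497 (64.1%) had a positive difference in U0126, and of the 584 called lower 470 (80.5%) had a negative one, against 51.9% positive among all genes. Among the genes above, CLK1 was 0.56 ± 0.13 (SE, adjusted p = 0.000745) with U0126 and 0.60 ± 0.13 (SE, adjusted p = 0.00867) with DMSO-EGF, and IDI1 0.45 ± 0.08 (SE, adjusted p = 1.24e-05) and 0.29 ± 0.08 (SE, adjusted p = 0.0684). U0126 minus DMSO-EGF came to -0.04 ± 0.18 (SE, adjusted p = 0.941) for CLK1 and 0.16 ± 0.11 (SE, adjusted p = 0.43) for IDI1. KLF11 was -0.73 ± 0.15 (SE, adjusted p = 0.000355) with U0126 and -0.86 ± 0.15 (SE, adjusted p = 0.00135) with DMSO-EGF. EIF4A1 was -0.92 ± 0.13 (SE, adjusted p = 1.5e-07) with U0126 and -0.89 ± 0.13 (SE, adjusted p = 4.43e-05) with DMSO-EGF. ERK output genes parted: 10 of 11 fell with U0126 and 9 were lower in the test of the difference, with a median difference of -1.20. DUSP5 was -1.79 ± 0.15 (SE, adjusted p = 2.9e-13) with U0126 and 0.44 ± 0.15 (SE, adjusted p = 0.217) with DMSO-EGF. SPRY4 was -1.49 ± 0.16 (SE, adjusted p = 2.07e-10) with U0126 and 0.33 ± 0.16 (SE, adjusted p = 0.521) with DMSO-EGF. HMGA2 was -0.74 ± 0.14 (SE, adjusted p = 6.28e-05) with U0126 and 0.50 ± 0.14 (SE, adjusted p = 0.0872) with DMSO-EGF, a difference of -1.24 ± 0.20 (SE, adjusted p = 1.24e-05). BHLHE40 was 0.30 ± 0.20 (SE, adjusted p = 0.314) with U0126 and 1.36 ± 0.20 (SE, adjusted p = 5.95e-05) with DMSO-EGF, a difference of -1.06 ± 0.28 (SE, adjusted p = 0.0117). EGR1 fell by 1.89 ± 0.19 (SE, adjusted p = 5.24e-11) with U0126, against -0.53 ± 0.19 (SE, adjusted p = 0.241) with DMSO-EGF. VIPR1, CYP1A1 and CYP1B1 rose more with U0126: VIPR1 by 2.54 (adjusted p = 9.27e-20), CYP1A1 by 3.36 (adjusted p = 1.26e-19) and CYP1B1 by 3.21 (adjusted p = 5.17e-09), with differences from DMSO-EGF of 2.16, 3.13 and 2.03 (adjusted p = 0.0121). Of the 7 measured aryl hydrocarbon receptor targets, 3 were higher and 0 lower in the test of the difference (2.21% of all genes higher), with a median of 0.11. The U0126 pre-treatment preceded both windows of that arm, so these values are changes between windows and not the whole effect of the inhibitor.

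**Figure D5:**
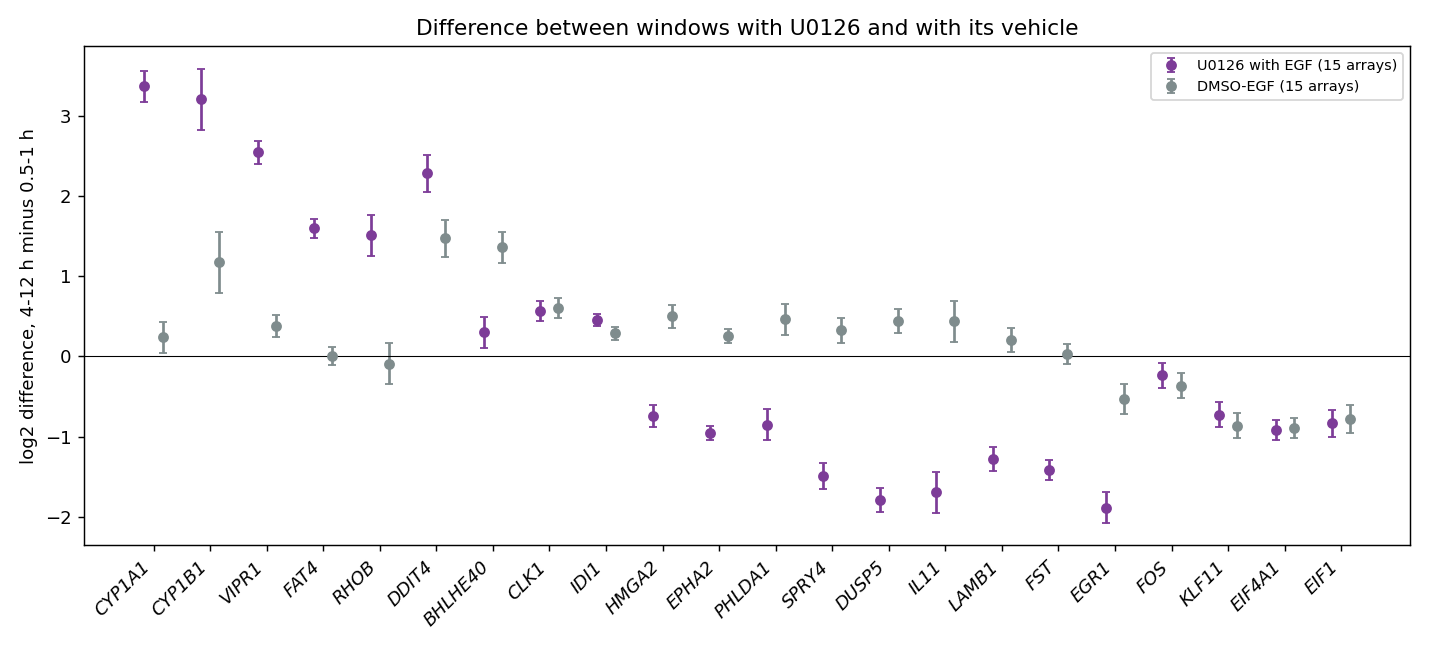
Difference between the windows with U0126 and with its vehicle for 22 genes. The y axis is the log2 difference of 4-12 h minus 0.5-1 h with its SE, for U0126 with EGF (15 arrays, purple, left) and DMSO-EGF (15 arrays, grey, right). KLF11, EIF4A1, CLK1 and IDI1 lie close together, whereas DUSP5, SPRY4, IL11 and HMGA2 lie below 0 with U0126 and above it in DMSO-EGF.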

How the data were processed

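RNA of MDA-MB-231 cells had been measured on Affymetrix arrays. The deposited table of 96 arrays and 22930 probe sets holds RMA values per the submitters' processing notes, presumed to be on the log2 scale and centred by the authors on a reference not given in the sources used here. The table gives no depth, and the number of arrays limits the precision. Left out were 524 array control and 114 rodent-named probe sets and those with several symbols or none, which left 11884 genes, each read from the probe set with the largest SD over all 96 arrays. Differences were fitted with limma 3.58.1 in R 4.3.3 (lmFit, eBayes with a variance trend), with each series and arm as a block, and adjusted p-values (Benjamini-Hochberg) were taken over all genes at a threshold of 0.05. The 2D repeats are numbered by series in the labels, and their deviations from the group means correlated in all 105 pairs of groups (0.57 to 0.754), so the numbers pair the arrays. Named genes are the 12 highest and 12 lowest called genes with 1 sign in all series, up to 4 called members of each of 30 lists with the smallest adjusted p, the 5 highest and 5 lowest called genes of other contrasts, and EGR1, FOS, DUSP1, MYC, TXNIP and HMGCS1; of the last contrasts the text gives only some, and further list members were added after their values were seen. The lists held 353 measured of 395 entries. Arrays and lists were chosen with earlier results of these data known. Alternatives changed the block, the normalization, the probe set rule and the arrays included. The main fit between the windows was also run on simulated data, whose outcome is not given here.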

Additional observations from a re-analysis of the deposited data

Results flagged for a closer look

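The change between the windows differed between 3D and 2D culture in 262 genes by limma's test of the difference (18 with series and time as a random block), and culture cannot be told apart from series. The largest positive differences, 3D minus 2D, were DDIT4 0.88 (adjusted p = 0.00312), EIF4A1 0.80 (adjusted p = 3.7e-08), EIF1 0.72 (adjusted p = 0.0145), HNRNPA1 0.67 (adjusted p = 0.000672) and FAM13A 0.63 (adjusted p = 0.0225). The largest negative ones were ST6GALNAC5 -0.66 (adjusted p = 0.0437), VIPR1 -0.61 (adjusted p = 0.00862), ALOX5AP -0.59 (adjusted p = 0.0318), ITPR1 -0.59 (adjusted p = 0.0295) and PCDH7 -0.56 (adjusted p = 0.0234). EIF4A1, EIF1 and HNRNPA1 are the probe sets described above whose companions moved less. The change differed between U0126 and DMSO-EGF in 797 genes, 583 when the 8 and 12 h U0126 arrays of 2D03 were left out, an alternative chosen after seeing the data. Highest with U0126, relative to DMSO-EGF, were CYP1A1 3.13 (adjusted p = 2.03e-12), VIPR1 2.16 (adjusted p = 2.24e-11), CYP1B1 2.03 (adjusted p = 0.0121), RHOB 1.60 (adjusted p = 0.00252) and FAT4 1.59 (adjusted p = 1e-09). Lowest were DUSP5 -2.23 (adjusted p = 5.57e-11), IL11 -2.13 (adjusted p = 3.34e-05), SPRY4 -1.82 (adjusted p = 5.29e-08), LAMB1 -1.48 (adjusted p = 1.09e-06) and FST -1.45 (adjusted p = 2.94e-08). CYP1B1 also had 1 untreated 2D array at 0 h far from the rest, at -0.2 against -2.27, -2.08 and -2.07 in the other 3; of 24 genes checked this was the one such case, and chance flags about 1 group in 20.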

How the results depend on the processing

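Without the replicate block the 1359 calls between the windows became 200, and the counts became 33 at 4 h, 106 at 8 h, 290 at 12 h, 47 for 4 h against 8 and 12 h, 0 for 1 h against 0.5 h, 40 in 3D, 733 in 2D, 21 for 3D minus 2D, 77 in the EGF arms, 0 in the control, 1 and 492 for untreated 4-12 h and 24-48 h against 0 h, 692 in U0126 and 86 for U0126 minus DMSO-EGF. With series and time together as a random block they were 716 between the windows, 302 for 4 h against 8 and 12 h, 12 for 1 h against 0.5 h and 18 for 3D minus 2D, and, in fits chosen after seeing the data, 39 in 3D, 1004 in 2D and 1280 for U0126 minus DMSO-EGF; averaging the arms gave 200. Series 2D03, 2D04 and 3D04 alone gave 606, 389 and 536; leaving out the control, EGF or DMSO-EGF arm 815, 612 and 506; leaving out 0.5 h or 1 h 650 and 855. The 2D series alone gave 35 in the control and 7 for untreated 4-12 h against 0 h. The cause of these changes was not tested. Leaving out a series, arm or time also left fewer arrays, whereas the fits with another block used the same arrays as the main fits.

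With 1 array left out, the count between the windows ran from 1187 to 1436; for the other comparisons, where this was chosen after seeing the data, it ran at 4 h from 328 to 550, at 8 h from 870 to 1279, at 12 h from 1532 to 1959, for 4 h against 8 and 12 h from 519 to 730, for 1 h against 0.5 h from 22 to 202, in 3D from 45 to 141, in 2D from 1535 to 1873, for 3D minus 2D from 96 to 351, in the control from 26 (without its 0.5 h array of 2D03) to 133, and in untreated cells against 0 h from 0 to 1, 6 to 67 and 1899 to 2930 at 0.5-1, 4-12 and 24-48 h. Of 585 alternative counts 507 lay within 1.5 times the main count, but most of the 585 came from leaving out 1 array. Among the alternatives of other kinds, most lay outside that limit. Values that changed sign were, in 2D03 alone, SGK1 0.0322, VEGFA -0.0411, IFI44 0.0117 and TXNIP 0.0372; in 2D04 alone, KLF9 0.0278, HSPA1B -0.0478 and MMP1 -0.112; and in 3D04 alone, MYC -0.143, DDIT3 -0.0156, MT1F -0.0128, DUSP1 0.00833 and TXNIP 0.0606. TXNIP, near 0, was also 0.0147 without the EGF arm, 0.0537 without 1 h, 0.0489 without 12 h, and between -0.0335 and 0.00632 with 1 array left out.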
